A study of Mus musculus with 25 samples.

Results

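The nuclear genes for subunits of the mitochondrial respiratory chain were followed across 25 libraries of mouse CD4 T cells in which the NF-κB proteins p65 and c-Rel were missing or present. The genes were chosen by symbol: Ndufa, Ndufb, Ndufc, Ndufs and Ndufv followed by a number, Sdha to Sdhd, symbols starting with Uqcr, Cox4 to Cox8, and Atp5, each with an expression estimate marked as successful in all 25 libraries. This gave 85 genes of 22985 symbols, of which 35 belong to complex I, 4 to complex II, 8 to complex III, 18 to complex IV and 15 to complex V. The other 5 carry a matching name without being enzyme subunits: Ndufa4l2, Cox7a2l, Atp5s, Atp5sl and Cox4nb, the last of which encodes a subunit of the endoplasmic reticulum membrane complex. Ndufab1 and Cyc1, which are subunits with other name patterns, were not included, and the 13 subunits encoded in mitochondrial DNA were not used here.

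The respiratory chain sits in the inner mitochondrial membrane. Complex I (NADH dehydrogenase) and complex II (succinate dehydrogenase) pass electrons to ubiquinone, complex III hands them to cytochrome c, and complex IV (cytochrome c oxidase) passes them to oxygen. Complexes I, III and IV pump protons, and complex V (ATP synthase) uses the proton gradient to make ATP. Complex II is encoded wholly in the nucleus, whereas the other complexes combine nuclear and mitochondrial gene products. Regulatory T cells (Tregs), CD4 T cells that depend on the transcription factor Foxp3 and restrain immune responses, are known to rely on mitochondrial respiration more than activated conventional T cells do.

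The cells came from spleen and lymph node of C57BL/6 mice. Resting Tregs lacking both p65 and c-Rel (DKO, 2 libraries), c-Rel alone (c-RelKO, 2) or p65 alone (p65KO, 3) were set beside wild-type (WT) Tregs (4) and WT conventional T cells (Tconv, 2). Stimulated cells received CD3 and CD28 antibodies at 2 µg/ml together with IL-2 for 3 h: DKO (2), c-RelKO (1), p65KO (1) and WT (2) Tregs, and WT Tconv (2). A last set of 4 stimulated libraries, 1 per condition, came from a Tat-Cre experiment, in which a cell-permeable Cre recombinase deletes a gene in isolated cells: Tregs labelled FoxP3 del, Tregs labelled NFkB del, a WT Treg control and a WT Tconv control. The labels give neither the Cre line behind the knockouts nor the number of animals per library, so p-values measure the spread between these libraries, which may be technical.

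The library numbers fall into 5 runs of consecutive numbers, called runs below. The labels do not call them batches. Run 3 and run 4 each hold DKO, c-RelKO and WT Tregs and WT Tconv, runs 1, 2 and 4 each hold a p65KO and a WT Treg library, and run 5 is the Tat-Cre set. Depth, inferred from each FPKM and its upper confidence bound, was 15.4 to 52.8 M fragments per library. T cell markers were present in every group, and the mean of Foxp3 was under 1 FPKM in resting and in stimulated WT Tconv outside the Tat-Cre set. Rel was near 2 FPKM in the c-RelKO and DKO libraries; Rela, which encodes p65, was at 76.1 and 56.3 FPKM in DKO, 58, 69.3 and 79.8 in p65KO, and 64.9 to 130 in WT Tregs, so its level does not check that label by itself. Foxp3 was at 8.01 and 21.2 FPKM in resting DKO Tregs, against 129, 210, 344 and 351 FPKM in resting WT Tregs, and at 6.34 and 8.31 FPKM in stimulated DKO Tregs, against 336 and 295 FPKM in stimulated WT Tregs, so the cells labelled DKO Tregs held little RNA of this defining marker. The libraries of run 1 stood apart, with Rel at 24.6 FPKM in p65KO 1, against 120 and 128 FPKM in the other p65KO libraries, and at 27.5 FPKM in WT Treg 1, against 200 to 271 FPKM in the other WT Treg libraries. The resting library c-RelKO 2 stood apart with erythroid RNA (Hba-a1, an alpha globin gene, at 13300 FPKM) and myeloid and B cell RNA. In the Tat-Cre set, the library labelled FoxP3 del held 266 FPKM of Foxp3 against 86.7 FPKM in its Treg control. A lower Foxp3 level was thus not seen, and the label could not be checked further.

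Most of the genes were well expressed: 70 of the 85 were above 10 FPKM in all 25 libraries. FPKM scales fragments to transcript length and library depth, so levels can be set side by side between genes. In WT Tregs the highest mean level was that of Atp5b, the catalytic beta subunit of ATP synthase, at 531 ± 112 FPKM (SD, n = 4). The median subunit level was 50.1 FPKM for complex I, 70.7 FPKM for complex II, 101 FPKM for complex III, 175 FPKM for complex IV and 160 FPKM for complex V, over the 72 subunits with a mean of at least 5 FPKM. Ndufs5, an accessory subunit of complex I, was listed between 9.32e-06 and 3.56 FPKM, with no fragments implied in most libraries, and whether this is its level or a failed estimate was not tested. Of the 85 genes, 6 did not reach 1 FPKM in 2 libraries and were not tested: Cox4i2, Cox6a2, Cox7b2, Cox8b and Cox8c, isoforms known from lung, muscle or testis, and Ndufa4l2. The other 79, of which 75 are enzyme subunits, entered the tests, which ran over 11532 genes.

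Promoter stretches of 4 members described below are printed to show what lies directly upstream of 3 genes that were called higher in DKO Tregs, Sdhd, Uqcrfs1 and Uqcr10, and of Atp5g2, which was higher within runs but not called. They come from RefSeq on GRCm38.p6, read 5′ to 3′ on the gene's strand and ending 1 base before the annotated start. Capitals mark a match to a searched motif: ETS in Sdhd, on the other strand, the cyclic AMP response element in Uqcrfs1, and overlapping NRF1 matches on both strands in Atp5g2. Uqcr10 holds none.
Sdhd, chr9:50603850-50603900, minus strand: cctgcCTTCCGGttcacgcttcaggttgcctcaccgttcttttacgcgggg
Uqcrfs1, chr13:30545317-30545476, minus strand: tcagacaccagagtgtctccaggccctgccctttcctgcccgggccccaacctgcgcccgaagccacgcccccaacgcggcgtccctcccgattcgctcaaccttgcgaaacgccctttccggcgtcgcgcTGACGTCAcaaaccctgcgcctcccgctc
Atp5g2, chr15:102671048-102671207, minus strand: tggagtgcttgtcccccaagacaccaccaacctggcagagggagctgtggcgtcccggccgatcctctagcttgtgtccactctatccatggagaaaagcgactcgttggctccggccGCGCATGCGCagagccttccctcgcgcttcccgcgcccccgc
Uqcr10, chr11:4704345-4704504, minus strand: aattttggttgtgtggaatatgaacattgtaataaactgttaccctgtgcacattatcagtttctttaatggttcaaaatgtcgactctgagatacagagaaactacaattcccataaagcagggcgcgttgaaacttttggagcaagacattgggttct
The search covered both strands of 250 bases before to 50 after the start for 61 enzyme subunit genes of at least 5 FPKM; 69 of the 85 members matched the RefSeq table by symbol. An ETS motif (CCGGAAG) was present in 26.2% of them, against 9.93% of all 27025 promoters and 12.9% of the 17492 protein-coding ones. The NRF1 motif (GCATGCGC) was present in 16.4%, against 3.05% of all promoters, and the YY1 motif (AAGATGGCG) in 11.5%, against 1.64%. ETS proteins such as GABP, NRF1 and YY1 are known regulators of nuclear respiratory genes. The cyclic AMP response element (TGACGTCA) was present in 6.56% of members against 2.03% of all promoters, and the E-box (CACGTG) in 9.84% against 8.09%. The NF-κB consensus was present in 5 of the 61, or 8.2%, against 9.55% of all promoters. A match describes letters and does not show binding.

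Resting Tregs without p65 and c-Rel held more respiratory chain RNA than WT Tregs. Of the 79 members, 45 were higher and 1 was lower in DKO Tregs, where 19.4% of all tested genes were higher and 13.6% lower. The median log2 difference was 0.68 over the members and 0.06 over all tested genes, on the log2(FPKM + 1) scale, which understates changes of low genes. Summed over the 72 subunits, the level was 13469 and 13278 FPKM in the DKO libraries, against 9945, 9027, 7270 and 7348 FPKM in the WT Treg libraries. With a term for the run in the fit, 71 members were higher and 1 lower, beside 4280 and 2782 of all 11532 genes. Without the doubted libraries WT Treg 1, p65KO 1 and c-RelKO 2, 59 were higher and 1 lower, beside 3214 and 2013 of 11284 genes. Both DKO libraries were above every WT Treg library in summed FPKM, and the WT Treg libraries of runs 1 and 2 were above those of runs 3 and 4. In these bulk samples, a shift in which cells are present and a change of RNA per cell cannot be told apart.

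**Figure D1:**
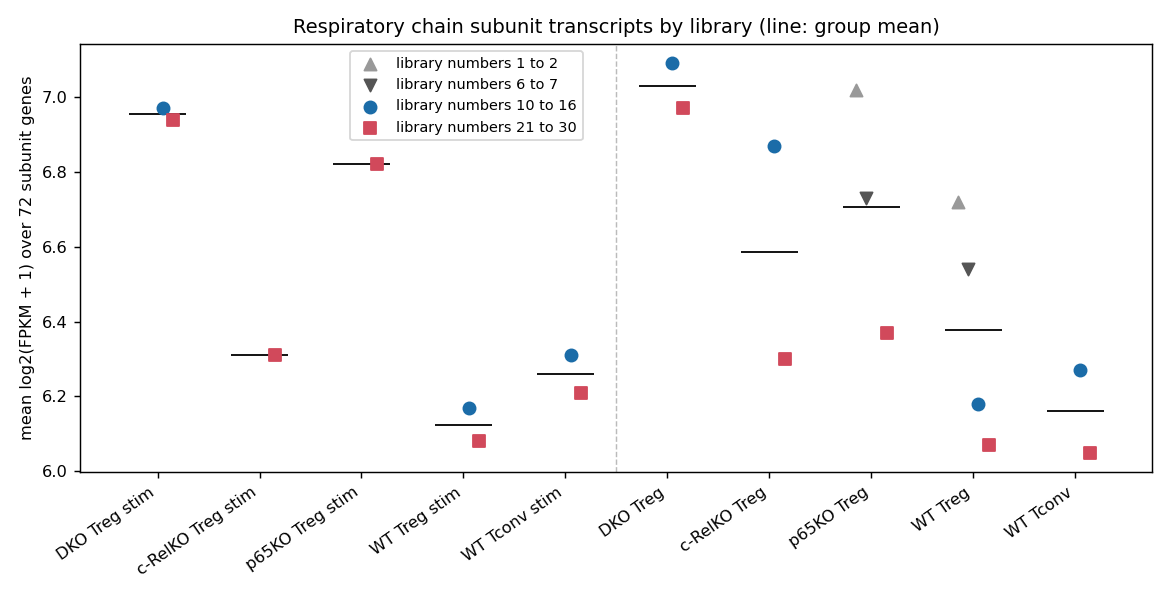
Mean log2(FPKM + 1) over 72 respiratory chain subunits (vertical axis) in each of the 21 libraries outside the Tat-Cre set. Groups lie along the horizontal axis, stimulated groups to the left and resting groups to the right, with the marker shape giving the run. DKO Tregs sit at 6.97 and 6.94 stimulated and at 7.09 and 6.97 resting, above the WT Tregs of the same state.

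The rise covered every complex. In complex II, which links the chain to the tricarboxylic acid cycle, 3 of 4 members were higher and Sdha was not called. Sdhd, a membrane anchor of succinate dehydrogenase (mm9 chr9:50404445-50411954; the promoter with the ETS match above), was at 112 and 134 FPKM in DKO Tregs, against 65.4, 53.4, 49.8 and 60.3 FPKM in WT Tregs. The groups did not overlap, and both DKO values were well above the highest WT value. The log2 difference was 1.09 (SE 0.137, adjusted p = 6.13e-05), and within runs 3 and 4 it was 1.16 and 1.14. Sdhb, the iron-sulfur subunit, was at 171 and 182 FPKM in DKO Tregs, against 108, 103, 75.4 and 93.4 FPKM in WT Tregs, with no overlap and a log2 difference of 0.90 (SE 0.157, adjusted p = 0.000695). Sdhc, the other anchor, was at 73.1 and 80.8 FPKM in DKO Tregs, against 61.7, 46.9, 36.8 and 44.8 FPKM in WT Tregs, and rose by 0.71 (SE 0.182, adjusted p = 0.00907). Sdha, the flavoprotein that oxidises succinate, was at 99.2 and 105 FPKM in DKO Tregs and at 105, 76.1, 75 and 80.4 FPKM in WT Tregs. Its groups overlapped, because the WT Treg library of run 1 was as high as DKO 2, and its difference of 0.29 did not pass (adjusted p = 0.143).

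In complex I, 18 of 35 members were higher and none lower. By role, 4 of the 7 core subunits, which carry the catalytic machinery, were higher with a median log2 difference of 0.53, and 14 of the 28 accessory subunits were higher with a median of 0.70. Among the core subunits, Ndufv1, which binds NADH and the flavin, was at 53.4 and 71.4 FPKM in DKO Tregs, against 48.5, 41.7, 29.5 and 35.6 FPKM in WT Tregs. The groups did not overlap, although DKO 1 was close to WT Treg 1, and the log2 difference was 0.68 (SE 0.19, adjusted p = 0.0144). Ndufs1, the largest iron-sulfur subunit, was at 38.1 and 44.3 FPKM in DKO Tregs and at 38, 27.6, 30.8 and 30.7 FPKM in WT Tregs, with a difference of 0.37 that missed the threshold (adjusted p = 0.0549). Among the accessory subunits, Ndufb8 of the membrane arm was at 154 and 173 FPKM in DKO Tregs, against 86.4, 97.1, 80.1 and 90.5 FPKM in WT Tregs. Its groups were far apart, with a log2 difference of 0.88 (SE 0.123, adjusted p = 0.000141). Ndufc2, also of the membrane arm, was at 96.5 and 102 FPKM in DKO Tregs, against 74.7, 53.5, 29.1 and 35.5 FPKM in WT Tregs. The WT Treg values spread widely, the log2 difference was 1.12 (SE 0.291, adjusted p = 0.00963), and within runs 3 and 4 it was 1.70 and 1.49.

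In complex III, 5 of 8 members were higher. Uqcrfs1, the Rieske iron-sulfur protein (mm9 chr13:30632181-30637185; the promoter with the cyclic AMP response element above), was at 151 and 134 FPKM in DKO Tregs, against 67.9, 99.6, 76.6 and 79 FPKM in WT Tregs. No values overlapped, and the log2 difference was 0.82 (SE 0.157, adjusted p = 0.00133). Uqcr10, a small accessory subunit (mm9 chr11:4601971-4604347), was at 248 and 270 FPKM in DKO Tregs, against 166, 153, 93.2 and 91.9 FPKM in WT Tregs, a log2 difference of 1.08 (SE 0.297, adjusted p = 0.0128). Uqcrc1, a core protein of the matrix side, was at 163 and 171 FPKM in DKO Tregs, against 109, 108, 114 and 123 FPKM in WT Tregs, and rose by 0.56 (SE 0.115, adjusted p = 0.00215). Uqcr11 was at 69.5 and 48.1 FPKM in DKO Tregs and at 52.5, 44.4, 26.9 and 20.7 FPKM in WT Tregs. Its groups overlapped and its pooled difference of 0.76 did not pass (adjusted p = 0.208), while within runs 3 and 4 DKO was higher by 1.34 and 1.18.

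In complex IV, 9 of the 13 tested members were higher. Cox5a, a matrix-side subunit (mm9 chr9:57369039-57380233), was at 289 and 330 FPKM in DKO Tregs, against 145, 139, 136 and 167 FPKM in WT Tregs. The WT values were tight and the DKO values well above them, with a log2 difference of 1.07 (SE 0.138, adjusted p = 7.37e-05). Cox8a, the common isoform of subunit 8, was at 475 and 617 FPKM in DKO Tregs, against 262, 281, 188 and 241 FPKM in WT Tregs. It had the largest rise of the 45 called members, 1.17 (SE 0.216, adjusted p = 0.00107). Cox7a2, the common isoform of subunit 7a, rose by 1.08 (SE 0.201, adjusted p = 0.00115) and Cox4i1, the common isoform of subunit 4, by 0.61 (SE 0.162, adjusted p = 0.0107). Ndufa4, now counted as a complex IV subunit, was at 381 and 363 FPKM in DKO Tregs, against 281, 234, 173 and 192 FPKM in WT Tregs, a rise of 0.78 (SE 0.218, adjusted p = 0.0145). Cox6c was at 315 and 247 FPKM in DKO Tregs and at 213, 210, 160 and 117 FPKM in WT Tregs, which did not pass (0.71, adjusted p = 0.128). At low levels, Cox6b2, the testis isoform of subunit 6b, was at 2.78 and 3.22 FPKM in DKO Tregs, against 1.6, 1.7, 1.42 and 1.58 FPKM in WT Tregs, and passed the test (0.64, SE 0.185, adjusted p = 0.0172), but not with a pseudocount of 0.1. Cox7a1, the heart and muscle isoform of subunit 7a, was at 1.98 and 2.7 FPKM in DKO Tregs and at 1.6, 0.355, 0.338 and 1.55 FPKM in WT Tregs (0.83, adjusted p = 0.0941).

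In complex V, 9 of 15 members were higher. The membrane ring of ATP synthase is built from subunit c, for which 3 genes encode the same mature protein. Atp5g3 was at 575 and 647 FPKM in DKO Tregs, against 325, 328, 278 and 319 FPKM in WT Tregs, a rise of 0.97 (SE 0.163, adjusted p = 0.00055). Atp5g1 (mm9 chr11:95934107-95937008) was at 63.5 and 59.2 FPKM in DKO Tregs, against 39, 37.3, 34.8 and 35.1 FPKM in WT Tregs, a rise of 0.73 (SE 0.138, adjusted p = 0.0012). Neither gene's groups overlapped. Atp5g2, the promoter with the NRF1 match above, was at 193 and 143 FPKM in DKO Tregs and at 205, 172, 96.9 and 73.4 FPKM in WT Tregs. Its level followed the run, with 205 and 172 FPKM in runs 1 and 2, so the pooled difference of 0.40 did not pass (adjusted p = 0.539), and within runs 3 and 4 DKO was higher by 0.99 and 0.95. Atp5b was at 747 and 960 FPKM in DKO Tregs, against 421, 470, 556 and 677 FPKM in WT Tregs, and rose by 0.70 (SE 0.233, adjusted p = 0.0341). Within runs the Atp5b difference was smaller, 0.42 and 0.50. Atp5d, the delta subunit of the central stalk, was at 265 and 258 FPKM in DKO Tregs and at 181, 201, 253 and 275 FPKM in WT Tregs, with overlapping groups and a difference of 0.22 (adjusted p = 0.411).

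The single member that was lower in DKO Tregs is not an enzyme subunit. Cox4nb, which was called higher (0.57, SE 0.178, adjusted p = 0.0238), is not one either. Atp5sl (mm9 chr7:26404512-26410569), whose product takes part in complex I assembly, was at 11.1 and 9.4 FPKM in DKO Tregs, against 18.2, 18.8, 16.7 and 15 FPKM in WT Tregs, and fell by 0.69 (SE 0.177, adjusted p = 0.00892). Cox7a2l (mm9 chr17:83901257-83913673), a relative of subunit 7a described as a supercomplex assembly protein, was at 258 and 209 FPKM in DKO Tregs and at 354, 354, 271 and 222 FPKM in WT Tregs. Its difference was -0.34 (adjusted p = 0.323), and DKO was lower within both runs.

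The DKO difference was seen in each run. Within run 3 the DKO library was higher for 77 of 79 members, with 58.2% of all tested genes higher, and the median difference was 0.94 against 0.144 over all genes. Within run 4 it was higher for 76 of 79, with 58.8% of all genes higher, and the median was 0.91 against 0.152. Medians by complex in run 3 were 0.97 for complex I, 1.06 for II, 0.77 for III, 1.04 for IV and 0.85 for V, and in run 4 they were 0.96, 0.89, 0.62, 0.92 and 0.78 in that order. The members lower in DKO in at least 1 of these pairs were Atp5d, Atp5sl and Cox7a2l. Across the 72 subunits, differences in the 2 runs had a Pearson correlation of 0.88, given as a description of points that share libraries. Leaving out DKO 1 left 23 members called and leaving out DKO 2 left 20. Among the members named for this comparison, Sdhb, Sdhd, Ndufb8, Uqcrc1, Uqcrfs1, Cox5a, Cox7a2, Cox8a, Atp5g1 and Atp5g3 stayed called without any single library.

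**Figure D2:**
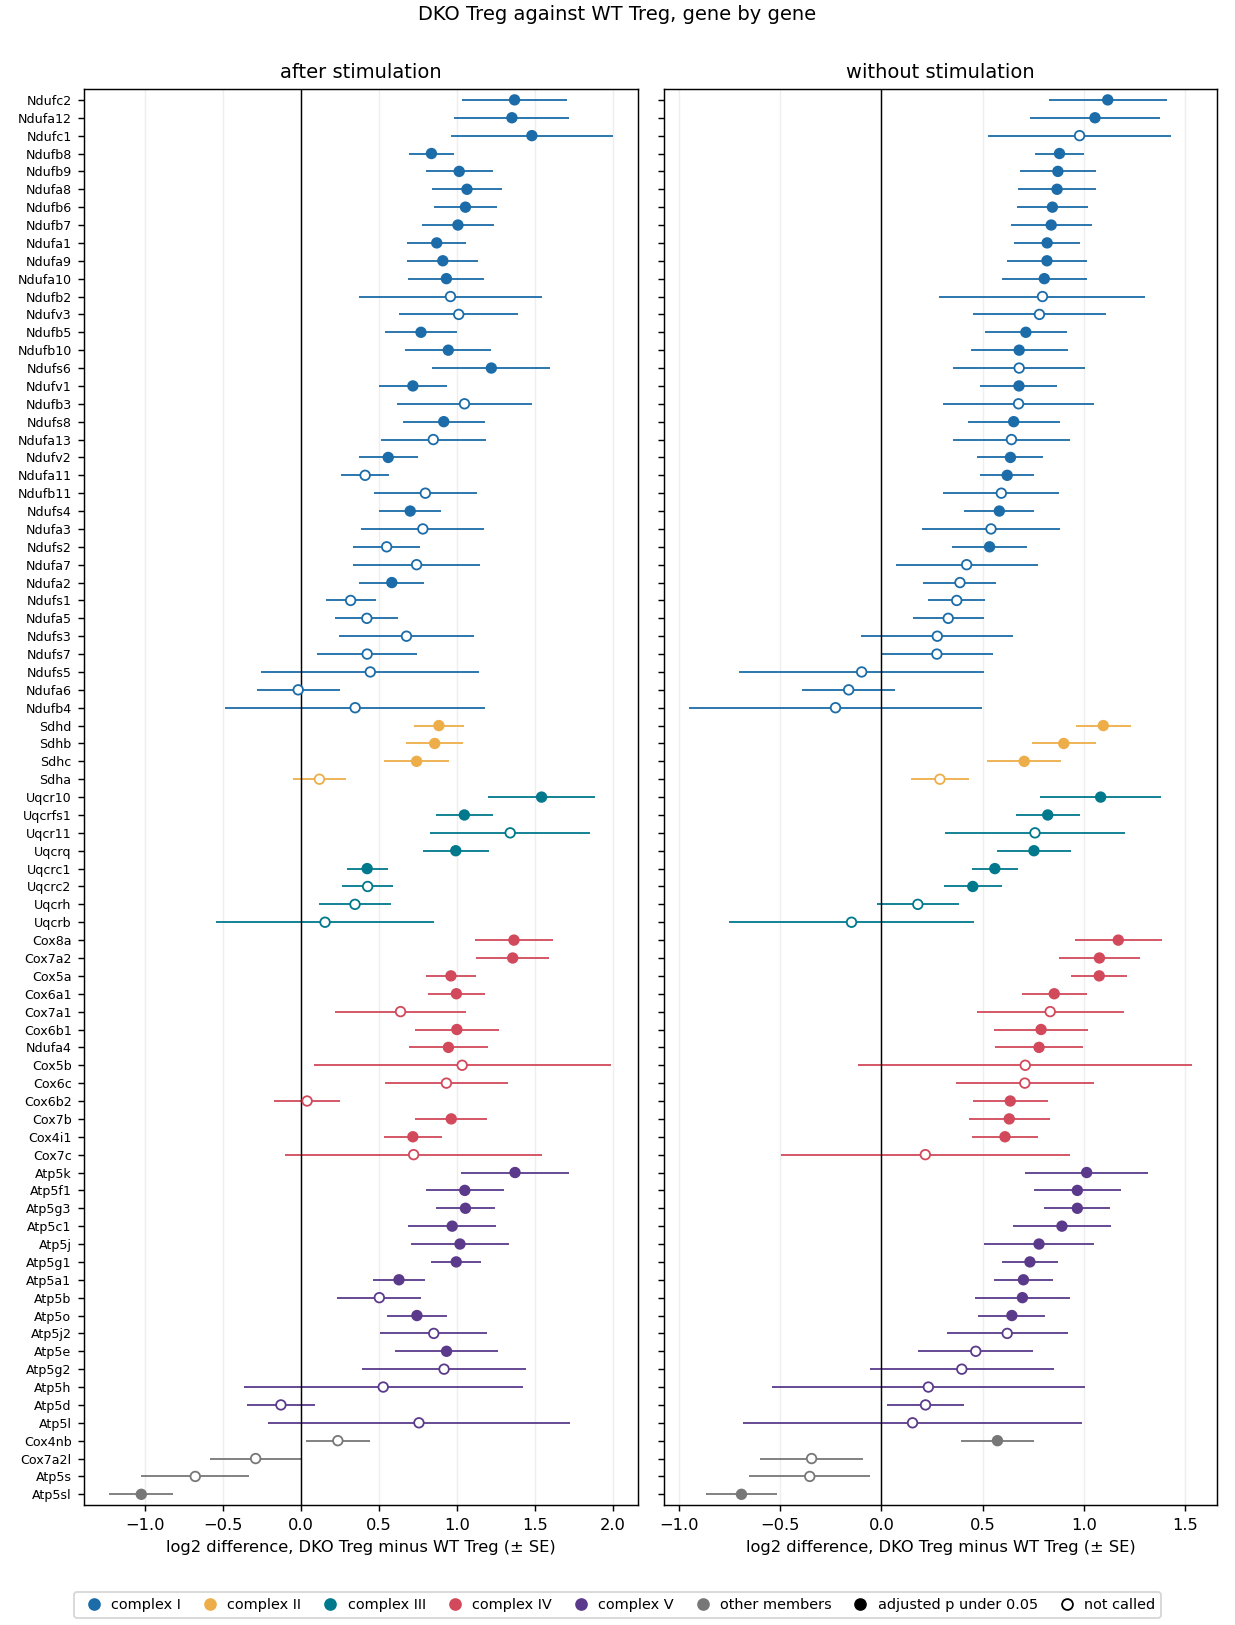
Log2 difference of DKO minus WT Tregs with its standard error for 79 members (rows, grouped by complex), after stimulation in the left panel and at rest in the right panel, with filled points for called members. Of the 79, 43 lie to the right of 0 and are filled after stimulation and 45 at rest, while Atp5sl is filled to the left of 0 in both panels.

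After 3 h of stimulation the DKO Tregs again held more of these RNAs than stimulated WT Tregs: 43 of 79 members were higher and 1 lower, where 16.6% of all genes were higher and 16.2% lower. The median difference was 0.85 over the members and 0 over all genes. By complex, 19 members of I, 3 of II, 4 of III, 8 of IV and 9 of V were higher. Uqcr10 was at 241 and 303 FPKM in stimulated DKO Tregs, against 96.5 and 88.1 FPKM in stimulated WT Tregs, the largest rise at 1.54 (SE 0.343, adjusted p = 0.00381). Ndufc1 of complex I rose by 1.48 (SE 0.519, adjusted p = 0.0418) and Ndufc2 by 1.37 (SE 0.336, adjusted p = 0.00691). Cox8a was at 461 and 646 FPKM in stimulated DKO Tregs, against 192 and 233 FPKM in stimulated WT Tregs, and rose by 1.36 (SE 0.25, adjusted p = 0.00104). Atp5k, the e subunit of ATP synthase, was at 585 and 518 FPKM in stimulated DKO Tregs, against 219 and 206 FPKM in stimulated WT Tregs, and rose by 1.37 (SE 0.349, adjusted p = 0.00849). For Uqcr10, Cox8a and Atp5k the groups were far apart.

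Calls in the stimulated state covered much of the resting set, with 39 members called higher in both states. Sdhd was at 90.1 and 105 FPKM in stimulated DKO Tregs, against 49.3 and 55.5 FPKM in stimulated WT Tregs, and rose by 0.88 (SE 0.158, adjusted p = 0.000867). Cox5a was at 280 and 335 FPKM in stimulated DKO Tregs, against 144 and 171 FPKM in stimulated WT Tregs, and rose by 0.96 (SE 0.159, adjusted p = 0.000524). Neither gene's groups overlapped in either state. Atp5sl was at 6.37 and 5.68 FPKM in stimulated DKO Tregs, against 14.5 and 12.2 FPKM in stimulated WT Tregs, and fell by 1.02 (SE 0.205, adjusted p = 0.00189). Sdha (0.12, adjusted p = 0.636) and Atp5d (-0.13, adjusted p = 0.697) did not pass in this state either. Both stimulated pairs are with WT libraries of the same run, where DKO was higher for 73 members in run 3 and 75 in run 4, with 50 and 49.5% of all genes higher. The count of called members was 22 without WT Treg stim 1, 29 without WT Treg stim 2 and 21 without DKO stim 2.

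No member passed the test for stimulation within DKO Tregs. Set against resting DKO Tregs, stimulated DKO Tregs had 0 members called either way by limma, with 1 at an unadjusted p under 0.05, while 3.86% of all genes were higher and 6.13% lower. The median was -0.09, and it was 0.05 after rescaling the libraries by size factors, which moved the median of all genes from -0.19 to -0.08. A response to stimulation that differed between DKO and WT Tregs was called for 0 of 79 members, with 0 at an unadjusted p under 0.05, beside 0.737% of all genes with a higher response in DKO and 0.234% with a lower response.

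How many members passed the test in the single knockouts depended on whether the fit held a term for the run; the counts without it come first here. In resting c-RelKO Tregs 1 member was higher and 1 lower than in WT Tregs, where 1.62% of all genes were higher and 8.98% lower, and 13 members had an unadjusted p under 0.05. With size factors, which moved the median of all genes from -0.13 to -0.02, the split was 7 higher and 1 lower. Of all 11522 genes in that fit, 308 were higher and 773 lower. With a term for the run the split was 46 higher and 3 lower, beside 1817 and 2986 of all 11532 genes. Leaving out the 3 doubted libraries left 1 c-RelKO library, and the members' median was then 0.59, against -0.067 over all genes. Ndufa1, an accessory subunit of complex I, was at 109 and 94.1 FPKM in c-RelKO Tregs, against 73.6, 69.9, 60 and 64.4 FPKM in WT Tregs, without overlap, and rose by 0.59 (SE 0.164, adjusted p = 0.0329). Atp5sl was at 10.1 and 9.7 FPKM in c-RelKO Tregs, below every WT Treg library, and fell by 0.73 (SE 0.177, adjusted p = 0.0179). The count was 0 without either c-RelKO library and 1 without WT Treg 4, and it was 4 without WT Treg 2. The 2 c-RelKO libraries differed: within run 3 c-RelKO was higher for 71 of 79 members with a median of 0.64, and within run 4 for 67 with a median of 0.21, while 48.5 and 40.7% of all genes were higher. The run 4 library is the one with erythroid, myeloid and B cell RNA, and the part of that RNA in its lower values was not tested. Cox7a2l was at 445 and 378 FPKM in c-RelKO Tregs and at 354, 354, 271 and 222 FPKM in WT Tregs, with a difference of 0.47 (adjusted p = 0.258).

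In resting p65KO Tregs limma called 0 of 79 members, beside 0.0347% of all genes higher and 0.00867% lower, and 17 members had an unadjusted p under 0.05. With a term for the run 15 were higher and 0 lower, beside 816 and 201 of all 11532 genes. Without the 3 doubted libraries the count was again 0, and it was also 0 over all genes. The direction was shared across runs: 68 members were higher in p65KO in each of the 3 within-run pairs, against 32.5% of all genes. The medians were 0.28, 0.20 and 0.27 in runs 1, 2 and 4. The summed level of 8 myeloid markers was 53.3 to 740 FPKM in p65KO Tregs, against 8.8 to 109 FPKM in WT Tregs, with a list median of 1.13 and 0 markers called, and its part in the members' difference was not tested. Cox5a was at 206, 186 and 199 FPKM in p65KO Tregs and at 145, 139, 136 and 167 FPKM in WT Tregs, so all 3 p65KO libraries were above the WT Treg libraries, yet the difference of 0.43 (SE 0.122) did not pass (adjusted p = 0.242). Sdhb was at 150, 120 and 120 FPKM in p65KO Tregs and at 108, 103, 75.4 and 93.4 FPKM in WT Tregs, with a difference of 0.46 (SE 0.138, adjusted p = 0.254). Ndufb8 was at 116, 115 and 105 FPKM in p65KO Tregs, above each WT Treg library, with a difference of 0.34 (SE 0.108, adjusted p = 0.276). The DKO, c-RelKO and p65KO comparisons share the WT Treg libraries.

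**Figure D3:**
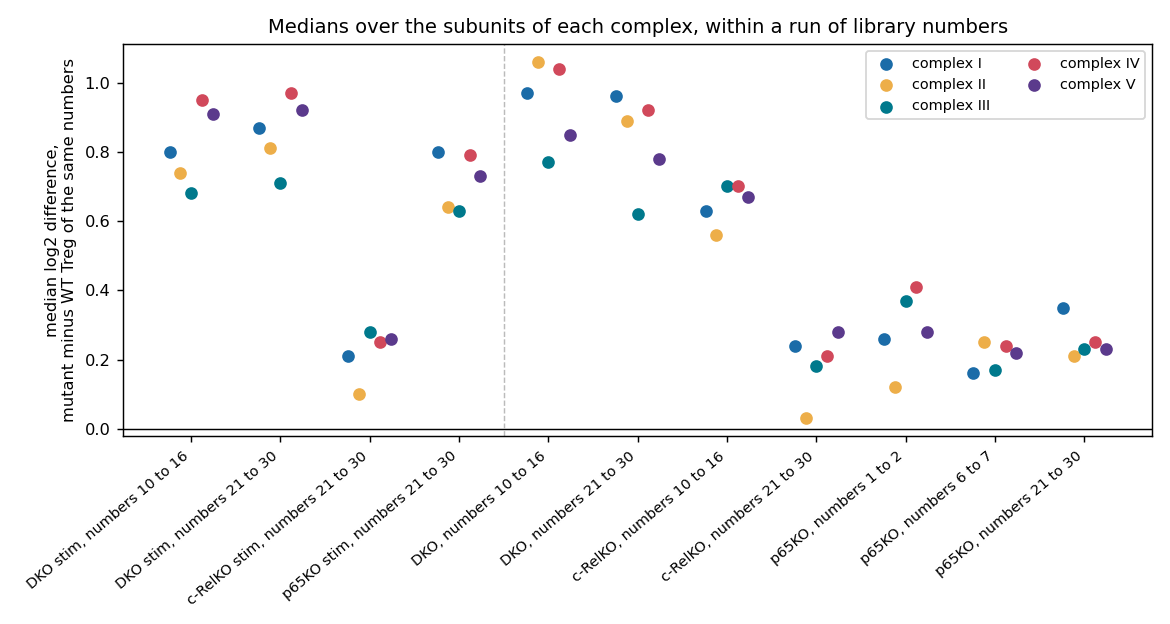
Median log2 difference of each mutant minus the WT Treg library of the same run (vertical axis), by complex, with stimulated pairs to the left and resting pairs to the right. In the resting pairs DKO medians lie between 0.62 and 1.06, c-RelKO between 0.03 and 0.70, and p65KO between 0.12 and 0.41.

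Direct pairs within a run set the double deletion beside each single deletion, without a test because each is a pair of libraries. DKO was higher than p65KO for 75 of 79 members in run 4, with 52.1% of all genes higher. The median was 0.61 against 0.026 over all genes. DKO was higher than c-RelKO for 68 members in run 3 and 73 in run 4, with 62.4 and 65.8% of all genes higher. The medians were 0.23 against 0.2 over all genes in run 3 and 0.69 against 0.283 in run 4. In run 3 the c-RelKO distance was thus close to that of all genes.

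The stimulated p65KO library, a single library of run 4, lay close to the DKO level. It was higher than the stimulated WT Treg library for 78 of 79 members, with 62.6% of all genes higher. The median was 0.74 against 0.142 over all genes. The stimulated p65KO library was higher than the resting one of the same run for 77 members, with 51.9% of all genes higher. The median was 0.48 against 0.015. Cox4i1 was at 533 FPKM in stimulated p65KO Tregs, against 325 FPKM in the stimulated WT Tregs and 356 FPKM in the resting p65KO Tregs of run 4. Cox5a was at 268 FPKM in stimulated p65KO Tregs, against 171 FPKM in the stimulated WT Tregs and 199 FPKM in the resting p65KO Tregs of run 4. Stimulated DKO Tregs exceeded stimulated p65KO Tregs by a median of only 0.09, with -0.138 over all genes. The stimulated c-RelKO library was higher than stimulated WT Tregs for 71 members, with 39% of all genes higher. The median was 0.23, against -0.073 over all genes. It was higher than resting c-RelKO for 43 members, with 50.8% of all genes higher, and the median was 0.03 against 0.006.

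Cell cycle genes were also highest in the DKO Tregs. The summed level of 12 cell cycle genes was 1350 to 1940 FPKM in resting DKO Tregs, 469 to 618 in c-RelKO, 515 to 762 in p65KO and 311 to 484 FPKM in WT Tregs. After stimulation it was 1090 to 1240 FPKM in DKO, 407 in c-RelKO, 827 in p65KO and 319 to 343 FPKM in WT Tregs. In the Tat-Cre set, with 1 library per condition, the sum was 621 FPKM in FoxP3 del and 519 FPKM in NFkB del, against 351 FPKM in the Treg control. The members' medians against that control were 0.07 and -0.06. Resting WT Tconv were at 186 to 203 FPKM, and the members' medians of WT Tregs against them were -0.13 and 0.01 in runs 3 and 4. In resting DKO Tregs 11 of the 12 were higher than in WT Tregs, with a median log2 difference of 2.98. Of 6 Treg markers 4 were lower in DKO than in WT Tregs in each state, with a median log2 difference of -2.29 at rest and -2.37 after stimulation. At rest their summed level was 783 to 968 FPKM in DKO, against 786 to 2460 FPKM in WT Tregs. After stimulation the sums overlapped, at 2250 to 2760 FPKM in DKO and 2560 to 2570 FPKM in WT Tregs. Foxp3 itself was far lower in DKO, as given above. Of 7 genes of NK and CD8 T cells 3 were higher in resting DKO Tregs, with a list median of 0.11. Cd8a, Klrb1c and Eomes were under 1 FPKM in resting DKO Tregs. The sums over the 7 were 44.3 to 76.9 FPKM in DKO, 44 to 44.5 FPKM in c-RelKO and 8.99 to 24.5 FPKM in WT Tregs. The part of cycling cells and of other cell types in the members' difference was not tested.

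Other mitochondrial genes were also higher in resting DKO Tregs, in counts to be read against the 19.4% of all genes that were higher. Of 76 mitochondrial ribosomal protein genes 44 were higher and 1 lower, with a median of 0.59. Of 16 genes of the tricarboxylic acid cycle, which feeds complexes I and II, 7 were higher and none lower, among them Fh1 (fumarase, 1.12, SE 0.189, adjusted p = 0.000563) and Cs (citrate synthase, 0.90, SE 0.129, adjusted p = 0.000171). Of 8 genes of ATP export and proton leak 6 were higher, with Slc25a4, an ADP/ATP carrier, at 1.46 (SE 0.213, adjusted p = 0.000197). Among 27 assembly factors 5 were higher, no more than the share of all genes. Among 13 import genes 6 were higher, and among 6 electron carriers and subunits outside the name rule 4, including Cycs, cytochrome c, at 0.67 (SE 0.161, adjusted p = 0.00613). Regulators of mitochondrial biogenesis went both ways, with 1 of 14 higher and 2 lower. Gabpa, the ETS protein of GABP, rose by 0.53, whereas Myc fell by 1.84 (SE 0.477, adjusted p = 0.00928) and Pprc1, a coactivator of the PGC-1 family, fell by 0.99 (SE 0.269, adjusted p = 0.0123). The medians of the subunit, ribosomal, cycle, export, import, assembly and carrier lists stayed above 0 with size factors.

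Resting WT Tregs and WT Tconv differed in few members. Of 79 members 2 were higher and 1 lower in Tregs, where 7.03% of all genes were higher and 5.53% lower. Atp5d was at 181, 201, 253 and 275 FPKM in WT Tregs, against 138 and 149 FPKM in WT Tconv, without overlap, and was higher by 0.64 (SE 0.191, adjusted p = 0.042). Atp5g1 was at 39, 37.3, 34.8 and 35.1 FPKM in WT Tregs, against 28.2 and 24.2 FPKM in WT Tconv, and was higher by 0.46 (SE 0.138, adjusted p = 0.041). Sdha was at 105, 76.1, 75 and 80.4 FPKM in WT Tregs, against 117 and 117 FPKM in WT Tconv, and was lower by 0.48 on the log2 scale (-0.482, SE 0.145, adjusted p = 0.0437). Within runs 3 and 4 all 3 kept their direction, at 0.87 and 0.88 for Atp5d, 0.29 and 0.51 for Atp5g1, and -0.63 and -0.54 for Sdha. With a term for the run 5 members were higher and 13 lower, beside 2247 and 3040 of all 11532 genes. Without the 3 doubted libraries 3 were higher and 3 lower, beside 1328 and 1732 of 11284 genes. The count was 0 without WT Treg 2, 3 or 4 or without either WT Tconv library. Members as a whole sat near 0 within runs. Tregs were higher for 29 of 79 in run 3 and 43 in run 4, beside 41 and 44.6% of all genes.

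In Tconv, stimulation raised a subunit c gene. Of 79 members 2 were higher and 2 lower in stimulated than in resting Tconv, where 6.69% of all genes were higher and 5.16% lower. Atp5g1 was at 51.6 and 55.5 FPKM in stimulated Tconv, against 28.2 and 24.2 FPKM in resting Tconv, and rose by 1.005 (SE 0.159, adjusted p = 0.00123). Ndufb6, an accessory subunit of complex I, was at 85.6 and 76.7 FPKM in stimulated Tconv, against 48.3 and 48 FPKM in resting Tconv, and rose by 0.74 (SE 0.203, adjusted p = 0.0298). Neither gene's groups overlapped. Atp5sl was at 13.2 and 14.2 FPKM in stimulated Tconv, against 24.5 and 25.3 FPKM in resting Tconv, and fell by 0.82 (SE 0.205, adjusted p = 0.0184). Cox6b2, an isoform of subunit 6b known from testis, was listed at 0 and 0.616 FPKM in stimulated Tconv, against 2.11 and 1.69 FPKM in resting Tconv, from at most 25 fragments in a library, and its fall passed the test (adjusted p = 0.00273). With a term for the run 13 were higher and 10 lower, beside 1994 and 2972 of all 11532 genes. Leaving out any of the 4 Tconv libraries left 2 of the 4 called, and Atp5g1 was among them each time.

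Atp5g1 had the lowest level of the 3 subunit c genes in every library except the Tat-Cre Tconv control, where its share of the 3 was 13.2% and that of Atp5g2 8.83%. Outside that set, its share of their summed FPKM was higher in both stimulated Tconv libraries than in the resting ones. The share was 11.2 and 11.7% in stimulated Tconv, against 7.22 and 7.05% in resting Tconv. In WT Tregs it was 8.75 and 9.08% after stimulation, against 6.86, 6.94, 8.49 and 8.2% at rest. The 3 genes together were at 462 and 474 FPKM in stimulated Tconv, against 391 and 344 FPKM in resting Tconv. Atp5g3, the most abundant, was at 318 and 361 FPKM in stimulated Tconv, against 251 and 253 FPKM in resting Tconv, a difference of 0.43 (adjusted p = 0.172). Atp5g2 was at 92 and 57.3 FPKM in stimulated Tconv and at 111 and 66.4 FPKM in resting Tconv, lower within each run but far from the threshold (adjusted p = 0.866).

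**Figure D4:**
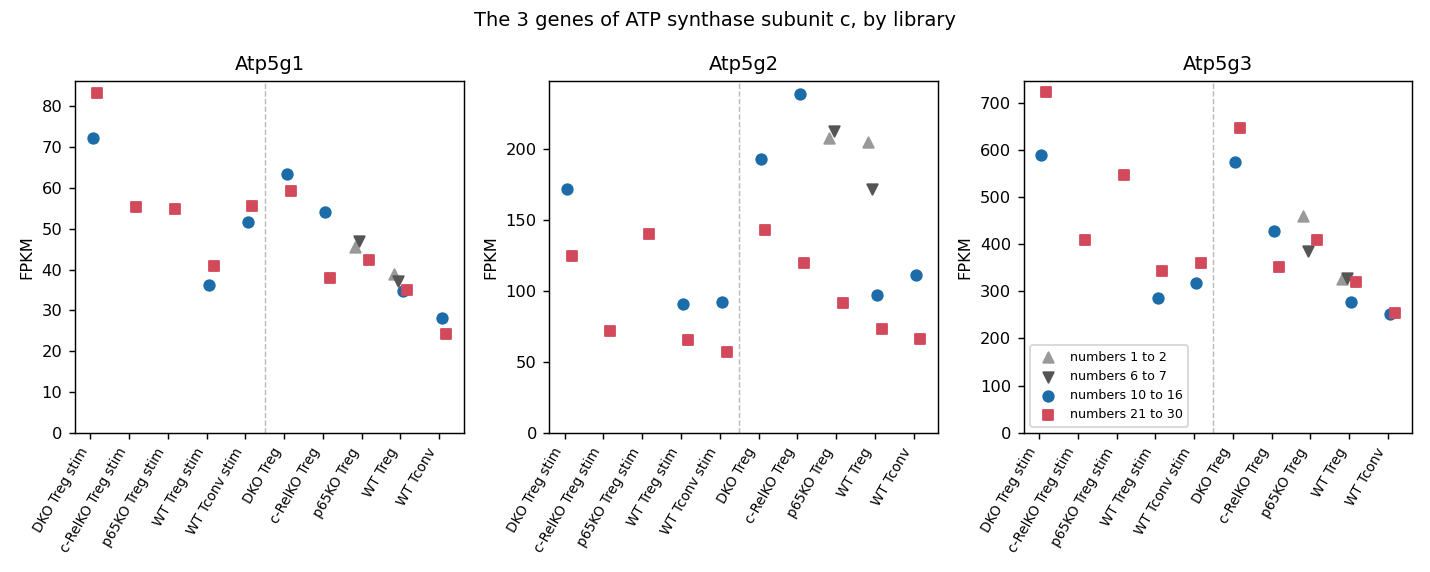
FPKM of Atp5g1, Atp5g2 and Atp5g3 (1 panel each, vertical axes from 0) in each library outside the Tat-Cre set, stimulated groups left of resting groups. Atp5g1 sits at 51.6 and 55.5 FPKM in stimulated Tconv, against 28.2 and 24.2 FPKM in resting Tconv, while stimulated WT Tregs, at 36.1 and 40.8 FPKM, lie near resting WT Tregs.

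In WT Tregs stimulation moved no member past the threshold. Set against resting WT Tregs, limma called 0 members and 0% of all genes higher, 0% lower, and 0 members had an unadjusted p under 0.05. Atp5g1 was at 36.1 and 40.8 FPKM in stimulated WT Tregs and at 39, 37.3, 34.8 and 35.1 FPKM in resting WT Tregs, with a difference of 0.07 (SE 0.138, adjusted p = 0.831). The difference between its Treg and Tconv responses was -0.93 (SE 0.211) and just missed the threshold (adjusted p = 0.0506). Within runs 3 and 4 it was -0.79 and -0.95. A response that differed between Tregs and Tconv was called for 1 member, higher, and 0 lower, where 0.0867% of all genes had a higher response in Tregs and 0.945% a lower response. That member was Cox6b2, at under 3 FPKM in these 10 libraries. Between stimulated Tregs and stimulated Tconv, 1 member was higher (Cox6b2) and 0 lower, where 3.62% of all genes were higher and 3.02% lower.

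Genes outside the enzyme complexes also rose with stimulation in Tconv. Of 13 mitochondrial import genes 8 rose, where 6.69% of all genes did, led by Timm8a1 (2.58, SE 0.195, adjusted p = 9.29e-06) and Timm10 (2.11, SE 0.279, adjusted p = 0.000421), small chaperones of the intermembrane space. Cycs rose by 1.52 (SE 0.186, adjusted p = 0.000237), and the regulators Myc and Pprc1 rose by 3.57 (SE 0.55, adjusted p = 0.00102) and 1.73 (SE 0.311, adjusted p = 0.00278). In WT Tregs none of these passed, and the response was lower in Tregs than in Tconv for Timm8a1 (-2.21, SE 0.258, adjusted p = 0.00247) and Cycs (-1.20, SE 0.246, adjusted p = 0.0375). Resting levels differed too. Myc was at 63, 143, 267 and 270 FPKM in resting WT Tregs and at 293 and 295 FPKM in stimulated ones. In Tconv Myc was at 29.9 and 33.9 FPKM at rest and at 382 and 396 FPKM after stimulation. Timm8a1 was at 21.2, 21.8, 16.7 and 17.9 FPKM in resting WT Tregs and at 21.5 and 29.7 FPKM in stimulated ones. In Tconv Timm8a1 went from 9.22 and 7.31 FPKM to 57.2 and 51.3 FPKM.

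Some members differed by run in all groups. Between runs 4 and 3, 6 members were lower in run 4 by more than 1 (log2) in each of the 7 groups found in both runs: Cox5b, Atp5l, Atp5h, Cox7c, Ndufb4 and Uqcrb, with mean differences of -1.61, -1.54, -1.48, -1.37, -1.36 and -1.24. Of all tested genes 0.702% did so. Cox5b was at 138 FPKM in DKO 1 of run 3 and 51.4 FPKM in DKO 2 of run 4, while the WT Tregs of those runs were at 63.5 and 21 FPKM. DKO was higher within each run, and the values of the 2 groups overlapped across runs. The 6 have a median transcript length, from the GENCODE annotation, of 593 bases, against 755 for the other members. The Spearman correlation of the run difference with length was 0.34 over 73 members and 0.01 over 7442 genes, as a description. What differed between the runs was not tested.

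**Figure D5:**
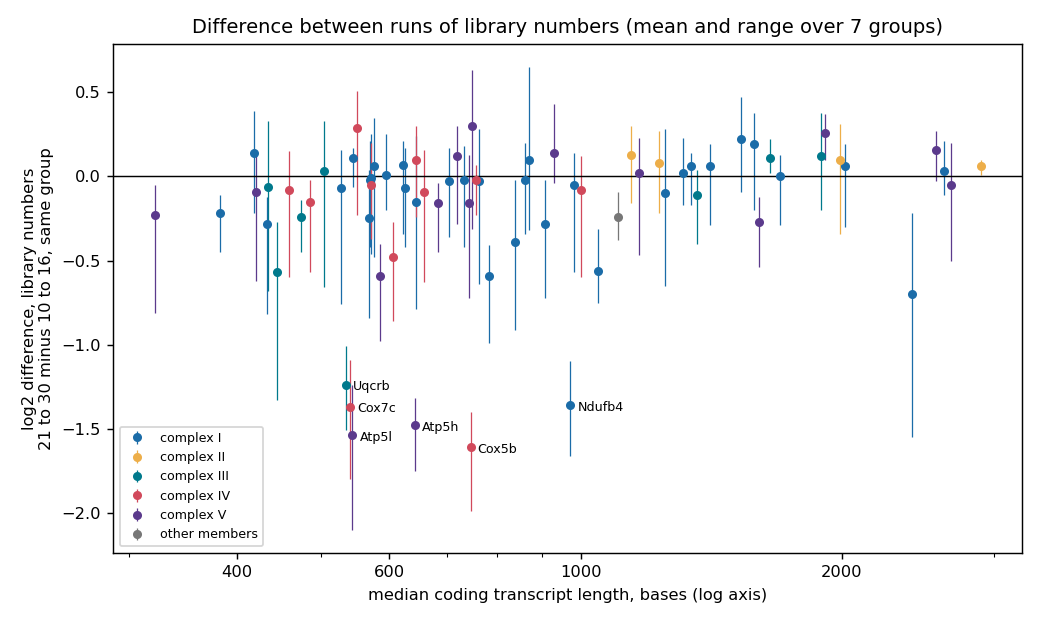
Difference of run 4 minus run 3 in log2(FPKM + 1) (vertical axis; points are means over 7 groups, bars the range) against coding transcript length in bases (horizontal axis). The 6 labelled genes lie between -1.24 and -1.61, apart from the other members.

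In the Tat-Cre set, with 1 library per condition and no test, the median differences of the members were small. The library labelled NFkB del was higher than its Treg control for 28 of 79 members, with 49.1% of all genes higher. The members' median was -0.06, against -0.001 over all genes. Rel was at 38.7 FPKM in NFkB del against 171 FPKM in the control, while Rela was at 124 and 125 FPKM. The farthest member was Ndufa12, an accessory subunit of complex I, at 8.24 FPKM from 58 fragments in the NFkB del library and 30.5 FPKM from 182 fragments in the control. The library labelled FoxP3 del was higher than its Treg control for 59 members, with 59% of all genes higher. The median was 0.07 against 0.05 over all genes. The control Treg library was higher than the control Tconv library for 57 of 79 members, with 67.8% of all genes higher. The median was 0.13 against 0.213 over all genes.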

How the data were processed

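RNA from T cells was extracted with Qiagen RNeasy kits and libraries were made with the Illumina TruSeq RNA kit, per the labels' protocols. The authors deposited 1 table per library with FPKM per gene; the build was mm9 and the tools were Cufflinks, TopHat and bcl2fastq per the submitters' processing notes, with versions not given in the sources used here. How reads were shared between overlapping genes or near-identical copies is not recorded, and strand is not stated.

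FPKM of entries with the same symbol were summed, 250 symbols with an entry not marked OK were left out, and log2(FPKM + 1) was fitted with limma 3.58.1 in R 4.3.3 (mean trend, 1 mean per group, 21 libraries outside the Tat-Cre set) over 11532 genes with at least 1 FPKM in 2 libraries. Tests were two-sided, and a member was called at a Benjamini-Hochberg adjusted p under 0.05 over all genes tested. The fit was tested on simulated data. Depth limits low genes: the lowest of the 72 subunits rested on 21 fragments in a library.

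The members and lists were chosen with earlier results of these data known. Named were fixed members (catalytic subunits, subunit c genes and isoforms) and, among called members of at least 5 FPKM, the 6 largest rises and falls. Other members named were picked after their values were seen: the Tat-Cre, run and listing extremes. Alternatives were a pseudocount of 0.1, no filter, size factors, blocks, and leaving out libraries.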

Additional observations from a re-analysis of the deposited data

Results flagged for a closer look

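In WT Tregs, Atp5g3 was at 278 FPKM in the library of run 3, apart from 319, 325 and 328 FPKM in the other 3, a gap larger than a test for a stray value allows. Of 31 members tested in this way 1 stood out, and chance flags about 1 in 20.

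The stimulation response of Cox6b2 was higher in WT Tregs than in WT Tconv by 1.43 on the log2 scale, by a test of the difference itself (limma, adjusted p = 0.0332). Its level was at most 2.43 FPKM in these libraries, and it was listed at 0 in the Tconv stim 1 library. With a pseudocount of 0.1 the call was lost.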

How the results depend on the processing

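No named member changed sign where it was called in either fit. Differences that were not called moved across 0 by more than their standard error in 7 cases on leaving out a library, in 4 with the block on the replicate number and in 1 each with size factors, the block on the run and the 3 doubted libraries left out, and the members' median for stimulated against resting DKO Tregs was -0.09 as reported and 0.05 with size factors. With a pseudocount of 0.1, stimulated against resting DKO Tregs had 1 member called and the difference of responses between Tregs and Tconv 0. That last count was 2 without the filter on low values and 2 with size factors; size factors gave 8 members called for c-RelKO against WT Tregs. Without WT Treg 1, p65KO 1 and c-RelKO 2, counts were 6 for resting and 10 for stimulated Tregs against Tconv. They were 9 for stimulated against resting Tconv, 3 for stimulated against resting DKO, and 2 for the Treg and Tconv responses. Of all 11284 genes 1328 were higher and 1732 lower for resting and 925 and 896 for stimulated Tregs against Tconv. Stimulated Tconv had 1128 and 1292, stimulated DKO 719 and 1583, and the Treg and Tconv responses 69 and 247. The cause was not tested.

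Leaving out each library in turn gave 20 to 55 members called for DKO at rest, 21 to 33 for DKO stimulated, 0 to 4 for c-RelKO, 0 to 3 for resting Tregs against Tconv, 2 to 2 for stimulated Tconv, 1 to 1 for stimulated Tregs against Tconv, and 0 to 1 for the Treg and Tconv responses. A lone library was then assumed to vary like the other groups. The other comparisons stayed at 0.

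Same-run libraries deviated together from their group means (51 pairs, mean correlation 0.432, lowest 0.036, 50 over 0.1), more than those with the same replicate number (57 pairs, mean 0.222, lowest -0.499), but 1 same-run pair was under 0.1 and the labels do not say what a run is, so the reported fit holds no block. A block on the run gave 72 members called for DKO at rest and 69 stimulated, 49 for c-RelKO and 15 for p65KO. It gave 18 for resting and 15 for stimulated Tregs against Tconv, 23 for stimulated Tconv and 6 for stimulated DKO. The DKO and WT responses had 1 and the Treg and Tconv responses 8. Over all 11532 genes this block called 4280 higher and 2782 lower for DKO at rest, and 3621 and 3609 stimulated. It called 1817 and 2986 for c-RelKO, 816 and 201 for p65KO, and 1994 and 2972 for stimulated Tconv. Tregs against Tconv had 2247 and 3040 at rest and 1935 and 2335 stimulated. Stimulated DKO had 1301 and 3550, the DKO and WT responses 523 and 1089, and the Treg and Tconv responses 889 and 953. The replicate block by number gave 8 for c-RelKO, 30 and 4 for Tregs against Tconv at rest and stimulated, and 9 for stimulated Tconv. It gave 36 for stimulated WT Tregs, 1 for stimulated DKO, 5 for the DKO and WT responses and 13 for the Treg and Tconv responses. Of all genes it called 715 higher and 2555 lower for c-RelKO. Tregs against Tconv had 1923 and 1127 at rest and 857 and 837 stimulated. Stimulated Tconv had 1136 and 1266, stimulated WT Tregs 880 and 2239, and stimulated DKO 661 and 1453. The DKO and WT responses had 493 and 500, and the Treg and Tconv responses 394 and 829.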
